A study of Mus musculus with 14 samples.

Results

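Neurotrophic factors and their receptors were followed through 8 genes of the 55422 in the count table. The genes are the ligands Bdnf and Ntf3, the neurotrophin receptors Ntrk2, Ntrk3 and Ngfr, and the receptors of the GDNF family Ret, Gfra1 and Gfra2. They were chosen by gene symbol, and all 8 were found and passed the filter on low counts in every comparison. The samples were brainstem tissue of 7 mice that all carried TH-Cre and Slc6a2-eGFP/Rpl10a, a transgene that puts a green-fluorescent tag on a ribosomal protein under control elements of the noradrenaline transporter gene. At 2 to 3 months of age, 4 mice (B, C, L and M) were infused in the locus coeruleus with P364S human tau, a mutant form of the microtubule-binding protein, and 3 mice (H, I and K) with EYFP, a fluorescent protein. From each mouse the labels give a library of the total homogenate (pre-IP) and a library of the immunoprecipitated (IP) RNA, so that there were 14 libraries in all. The study was set up to compare tau IP with EYFP IP, and no group without an infusion was among the samples.

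Brain-derived neurotrophic factor, encoded by Bdnf, signals through the receptor tyrosine kinase TrkB (Ntrk2). Neurotrophin-3, encoded by Ntf3, signals mainly through TrkC (Ntrk3). All neurotrophins, and their uncleaved precursors in particular, can also bind the p75 receptor (Ngfr). Ligands of the GDNF family bind a co-receptor held to the membrane by a lipid anchor, GFRα1 (Gfra1) for GDNF and GFRα2 (Gfra2) for neurturin, and the pair then activates the receptor tyrosine kinase Ret. The locus coeruleus holds the main noradrenergic cell group of the brain. Its neurons respond to neurotrophin-3, BDNF and GDNF, while many neurons and glia outside it also express TrkB, TrkC and the GFRα proteins.

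The libraries held 41843489 to 65664551 counts, so that 3 counts equal 0.0457 to 0.0717 CPM, the unit used below for counts scaled to a library of 1000000. RNA integrity numbers were 7.7 to 9 except for the EYFP IP library of mouse I, at 4.2. The tau IP library of mouse B had the fewest genes detected, 20813, against 23632 to 25885 in the other IP libraries. Over 15082 genes with a mean of at least 1 CPM, the median log2 ratio of IP to pre-IP was -0.30 in mouse B. In the other mice it was -0.13 to 0.04, so low ratios in mouse B are in part shared by most genes. Markers of noradrenergic neurons, 12 genes such as Dbh and Slc6a2, were all higher in IP than in pre-IP. Their mean log2 ratio of IP to pre-IP per mouse was 3.31 ± 1.13 (SD, n = 4) after tau and 0.77 ± 0.15 (n = 3) after EYFP, and the ranges were 1.74 to 4.44 and 0.68 to 0.95. The IP of the EYFP mice was thus closer to the homogenate in these markers than that of the tau mice. Library numbers fell into a range up to 11 (mice B, C, H and I) and a range from 17 (mice K, L and M). Mouse M, labelled female, had 674 Y-linked counts in pre-IP and 1153 in IP, and the EYFP libraries of mouse K held 408 and 398 counts of the human tau construct, against 2 to 18 in mice H and I.

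The members lie on 8 different stretches of the mouse genome (GRCm38). Bdnf (ENSMUSG00000048482.14) is at chr2:109674700-109727007 on the plus strand and Ntf3 (ENSMUSG00000049107.13) at chr6:126101412-126166910 on the minus strand. Ntrk2 (ENSMUSG00000055254.15) is at chr13:58806569-59133970 on the plus strand, Ntrk3 (ENSMUSG00000059146.12) at chr7:78175959-78738012 on the minus strand and Ngfr (ENSMUSG00000000120.6) at chr11:95568818-95587735 on the minus strand. Ret (ENSMUSG00000030110.13) is at chr6:118151745-118197718 and Gfra1 (ENSMUSG00000025089.15) at chr19:58235604-58455909, both on the minus strand, and Gfra2 (ENSMUSG00000022103.10) is at chr14:70890120-70979838 on the plus strand. Counts are per gene, so the kinase and truncated forms of TrkB, and those of TrkC, were not separated. Ntrk2 has 10 annotated transcripts, of which 7 are protein-coding, and Ntrk3 has 20, of which 6 are. Exons of Bdnf share 896 bases with the antisense gene Gm45346, which reached 0.0322 CPM at most, and those of Gfra1 share 416 bases with Gm16277, at 0.119 CPM at most. Whether the counting used strand is not given in the sources used here, so reads of these overlaps cannot be assigned to a strand.

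Bdnf has several alternative first exons, each with a start of its own, of which RefSeq (GRCm38.p6) gives 7, whereas it gives 1 start for Ntrk2. The 250 bases before a Bdnf start (chr2:109692186-109692435, plus strand, 45.6% GC) and before the Ntrk2 start (chr13:58806319-58806568, plus strand, 62.8% GC) are shown because this ligand and its receptor differed in opposite directions between the fractions. Capitals mark the reverse-strand letters of TGACG, the half-site of the cAMP response element by which neuronal activity is known to act on Bdnf.
Bdnf: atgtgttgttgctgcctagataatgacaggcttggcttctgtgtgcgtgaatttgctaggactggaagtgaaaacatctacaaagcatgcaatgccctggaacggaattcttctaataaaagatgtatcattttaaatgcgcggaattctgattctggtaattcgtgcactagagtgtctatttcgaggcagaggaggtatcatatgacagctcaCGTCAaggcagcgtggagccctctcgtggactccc
Ntrk2: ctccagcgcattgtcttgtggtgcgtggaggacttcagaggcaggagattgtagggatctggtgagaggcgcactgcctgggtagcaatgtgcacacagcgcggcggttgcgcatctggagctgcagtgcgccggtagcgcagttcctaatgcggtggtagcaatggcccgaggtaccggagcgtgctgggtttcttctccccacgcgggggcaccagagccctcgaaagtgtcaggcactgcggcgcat
The match starts 35 bases before the Bdnf start. Of the 7 Bdnf windows, the 1 shown is the 1 that holds TGACG, and no link of these letters to the values of the fractions was tested. TGACG was searched on both strands and was in 17.8% of 32851 RefSeq windows of this length, and the full TGACGTCA, which contains it, was in 1.55%. No other window of the 12 that matched 5 of the 8 members, including that of Ntrk2, holds TGACG, which says only that these letters are not in those windows.

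Levels were compared between genes per length, as RPKM (CPM divided by the exon length in kilobases). Gfra2 was highest and Ntrk2 second by the mean of each of the 4 groups. In pre-IP of the EYFP mice, Gfra2 stood at 14 ± 1.89 RPKM (SD, n = 3), Ntrk2 at 8.92 ± 0.913, Ret at 7.83 ± 1.99 and Gfra1 at 7.65 ± 1.10. The range of Ntrk2 overlapped with that of Ret, and that of Ret with Gfra1, while Gfra2 lay above Ntrk2 and Gfra1 above Bdnf with no overlap. Bdnf followed at 1.49 ± 0.108 RPKM, then Ntrk3 at 0.925 ± 0.167, Ngfr at 0.677 ± 0.153 and Ntf3 at 0.645 ± 0.194, and of these the last 3 overlapped with their neighbours. In pre-IP of the tau mice the order was the same but for Gfra1 (7.55 ± 0.457, n = 4), which lay above Ret (5.69 ± 0.830) with no overlap. In tau IP the order of these was turned, with Ret at 5.59 ± 0.835 RPKM and Gfra1 at 3.86 ± 0.991, and their ranges overlapped. Ntrk2 and Ntrk3 have the longest exon sets, 19292 and 30170 bases summed over all isoforms, which lowers their RPKM wherever the shorter isoforms dominate.

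**Figure D1:**
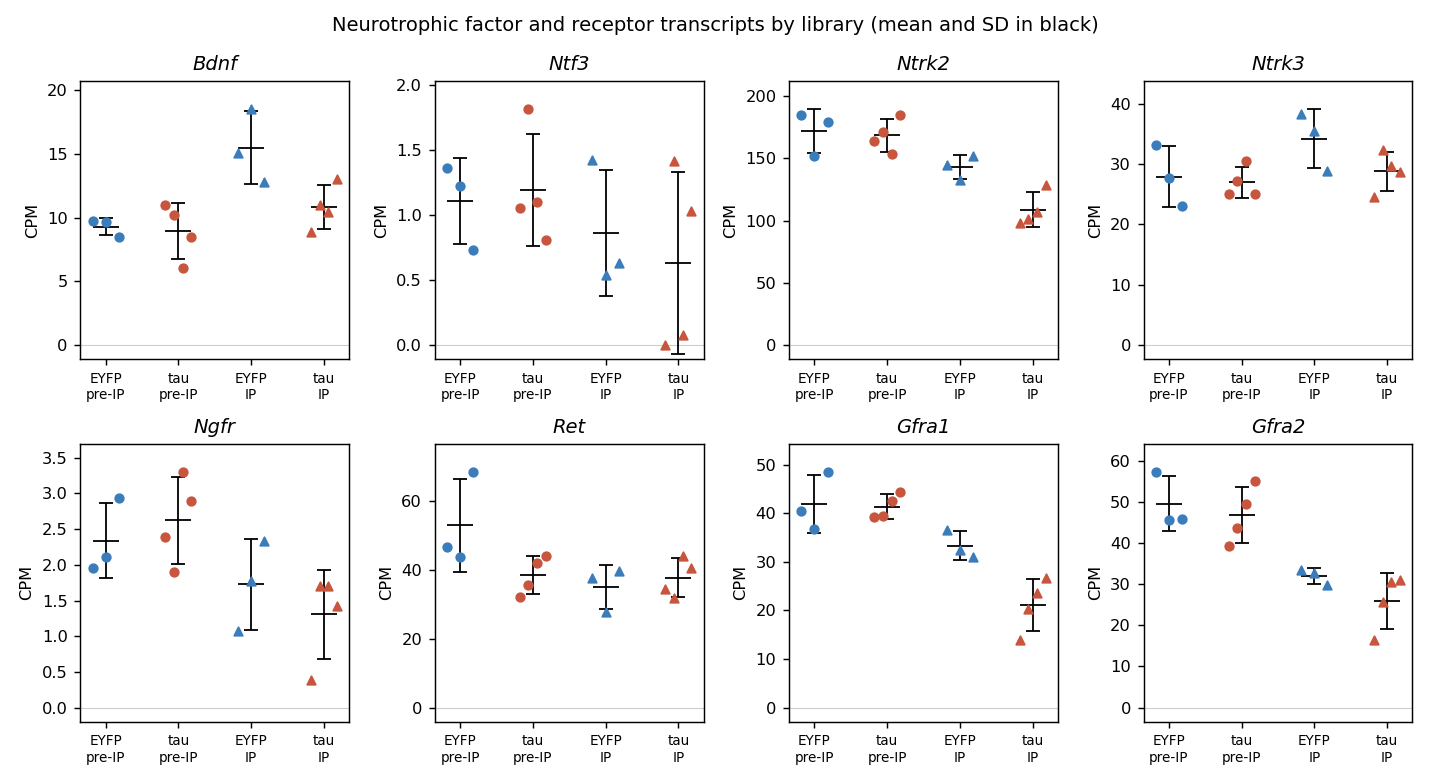
CPM (linear axes) of the 8 member genes in each library, with 1 point per mouse (blue for 3 EYFP mice, red for 4 tau mice, circles for pre-IP, triangles for IP) and black lines for the mean ± SD of each group. Bdnf points sit highest in EYFP IP, at 12.8 to 18.5 CPM, and Gfra1 points lowest in tau IP, at 13.9 to 26.6 CPM.

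The first comparison, IP against pre-IP, shows which member transcripts were more or less frequent in the immunoprecipitate than in the homogenate it came from. The ligand gene Bdnf rose in IP, while the TrkB gene Ntrk2 and the co-receptor genes Gfra1 and Gfra2 fell. Ntf3, Ntrk3, Ngfr and Ret did not pass the test (edgeR's quasi-likelihood test over 19472 genes, Benjamini-Hochberg adjusted p under 0.05). Thus 4 of the 8 members passed, where 29.9% of all genes tested did, and 1 was higher and 3 were lower, where 15.6% and 14.2% of all genes were. Their median log2 fold change was -0.54, against -0.00 over all genes. Both fractions of a mouse came from the same tissue, so a ratio between them does not measure cell number. Between the treatments, fewer cells of a type and less RNA per cell cannot be told apart in bulk samples such as these.

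Bdnf in pre-IP was at 9.70, 9.63 and 8.50 CPM in the EYFP mice H, I and K, and at 11, 10.2, 6.04 and 8.46 CPM in the tau mice B, C, L and M. In IP it was at 15.1, 18.5 and 12.8 CPM in H, I and K, and at 8.90, 11, 10.4 and 13 CPM in B, C, L and M. All EYFP IP libraries lay above every pre-IP library, while the tau IP libraries overlapped with them, and B was the 1 mouse of 7 whose IP was lower than its own pre-IP. That mouse's log2 ratio for Bdnf, -0.30, equalled its median over the 15082 genes. The log2 fold change was 0.52 (SE 0.15, adjusted p = 0.0139, edgeR). Bdnf did not pass without mouse H (0.46, adjusted p = 0.0564) or without mouse I, whose IP library had the low RNA integrity (0.42, 0.0623). With edgeR in the tau mice alone it was 0.34 (adjusted p = 0.289) and in the EYFP mice alone 0.73 (0.0450).

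Ntf3 was scarce. Pre-IP libraries held 1.36, 1.22 and 0.730 CPM in mice H, I and K and 1.05, 1.81, 1.10 and 0.806 CPM in B, C, L and M. In IP it was at 1.42, 0.538 and 0.626 CPM after EYFP, and at 0, 1.41, 0.0789 and 1.03 CPM after tau. Tau IP held the lowest values, in B and L, and 1 value (C) next to the highest EYFP IP library. The IP library of mouse B had 0 Ntf3 counts against 50 in its pre-IP, at least 19.6-fold lower at a floor of 3 counts per library, and that of mouse L had 4 against 63. This floor covers counting error only. The IP samples of B and L had the lowest RNA concentrations, 0.1 and 0.2 ng per microlitre, against 0.5 to 2.8 in the other IP samples. The part of RNA amount in these low counts was not tested. The fitted log2 fold change of IP against pre-IP was -0.64 with an SE of 0.61 (adjusted p = 0.466, edgeR), so the SE was about as large as the difference. The spread between mice was larger, with log2 ratios (2 counts added) from -4.93 in B to 0.35 in M.

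**Figure D2:**
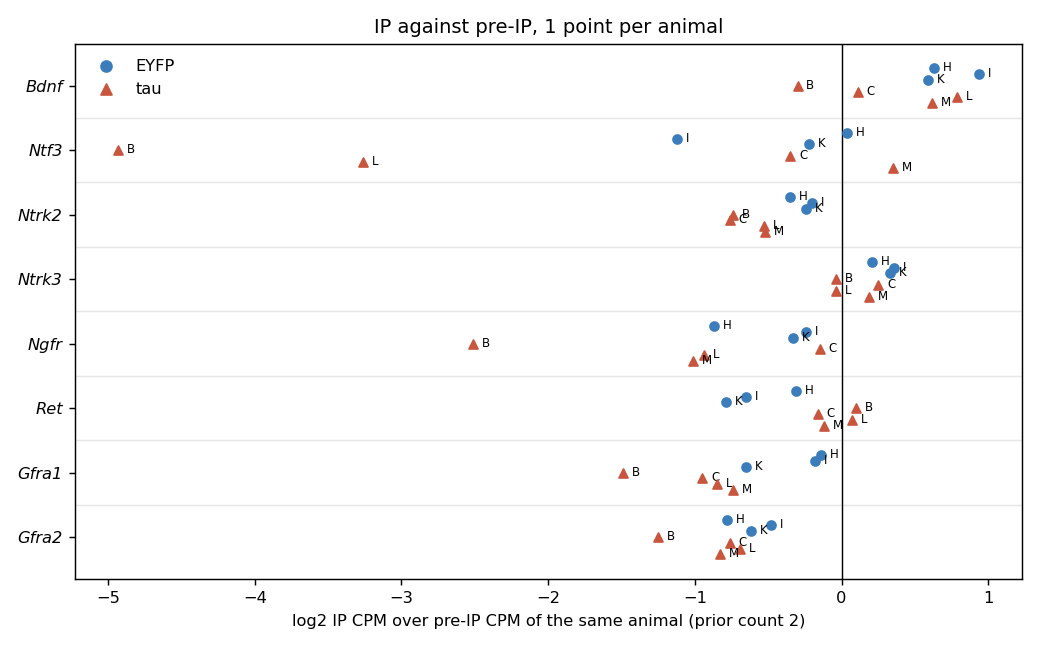
Log2 ratio of IP to pre-IP (CPM, 2 counts added) for each member gene, with 1 point per mouse labelled by letter (blue circles for 3 EYFP mice, red triangles for 4 tau mice). Ntrk2, Ngfr, Gfra1 and Gfra2 lie below 0 in all 7 mice, and the Ret, Gfra1 and Ntrk2 points of the treatments do not overlap.

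Among the receptors, Ntrk2 was the most counted member. In pre-IP it was at 185, 152 and 179 CPM in mice H, I and K and at 164, 171, 154 and 185 CPM in B, C, L and M. In IP it was at 145, 133 and 152 CPM in H, I and K and at 98.2, 101, 107 and 129 CPM in the tau mice. Every mouse had less Ntrk2 in its IP than in its pre-IP, and the tau IP libraries were the lowest of all. The log2 fold change was -0.43 (SE 0.10, adjusted p = 0.00348, edgeR). It was -0.58 (0.0134) in the tau mice alone and -0.27 (0.329) in the EYFP mice alone, where Ntrk2 did not pass.

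Ntrk3, the TrkC gene, was close to even between the fractions, with per-mouse log2 ratios from -0.04 (B and L) to 0.36 (I). Its log2 fold change was 0.23 (SE 0.10, adjusted p = 0.0880, edgeR). The p75 gene Ngfr had 3.30 CPM at most, and its log2 ratio was below 0 in all 7 mice, from -2.51 in B to -0.15 in C. Of 15082 genes with a mean of at least 1 CPM, 19.8% were lower in all 7 mice. The log2 fold change of Ngfr was -0.74 (SE 0.29, adjusted p = 0.0676, edgeR), and with the mouse as a block, which compares the fractions within a mouse, it was -0.82 and passed (adjusted p = 0.0448).

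The receptors of the GDNF family did not move as a unit. Gfra2, the neurturin co-receptor, was at 57.3, 45.6 and 45.8 CPM in pre-IP of H, I and K and at 39.2, 43.7, 49.4 and 55.0 CPM in that of B, C, L and M. In IP it was at 33.5, 32.8 and 29.8 CPM in H, I and K and at 16.5, 25.7, 30.5 and 31.0 CPM in B, C, L and M. No IP library reached any pre-IP library, and mouse B was lowest. Its log2 fold change, -0.72 (SE 0.12, adjusted p = 4.15e-04, edgeR), was the only one of the 8 that passed in all alternatives run.

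Gfra1, the GDNF co-receptor, was at 40.4, 36.8 and 48.5 CPM in pre-IP of H, I and K and at 39.2, 39.4, 42.6 and 44.3 CPM in that of B, C, L and M. In IP it was at 36.6, 32.5 and 30.9 CPM in the EYFP mice and at 13.9, 20.4, 23.6 and 26.6 CPM in the tau mice. All tau IP libraries lay below all EYFP IP libraries, and those lay just below the pre-IP libraries. The log2 fold change of IP against pre-IP was -0.66 (SE 0.14, adjusted p = 0.00186, edgeR). It was -0.93 (0.00823) in the tau mice alone and -0.34 (0.275) in the EYFP mice alone.

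Ret, the kinase that both co-receptors serve, was at 46.7, 43.8 and 68.5 CPM in pre-IP of H, I and K and at 32.2, 35.6, 42.1 and 44.2 CPM in that of B, C, L and M. In IP it was at 37.6, 27.9 and 39.7 CPM in H, I and K and at 34.6, 31.8, 44.2 and 40.6 CPM in B, C, L and M. All 3 EYFP mice had less Ret in IP, whereas the tau mice were split. Ret therefore gave a log2 fold change of -0.23 (SE 0.16, adjusted p = 0.301, edgeR) over all mice, of -0.61 (0.134) in the EYFP mice and of 0.03 (0.927) in the tau mice. Of the 8 members, 3 (Ntrk2, Gfra1 and Gfra2) had IP libraries all below the pre-IP libraries, where 5.58% of all genes did. For Ntrk2 the highest IP and the lowest pre-IP library were both at 152 CPM when rounded, and this was before the scaling (TMM) used in the test.

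Markers of several other cell types were lower in the IP of the tau mice, as Ntrk2 and Gfra1 were, whereas in the EYFP mice Ntrk2, Gfra1 and Gfra2 had ratios below 0 and most of these markers lay near 0. The mean log2 ratio of IP to pre-IP of 7 astrocyte markers, a cell type known to carry truncated TrkB, was 0.15 ± 0.05 (SD, n = 3) after EYFP and -0.50 ± 0.46 (n = 4) after tau, with mouse B lowest at -1.18. Their summed level in IP was 876 to 1151 CPM after EYFP and 422 to 925 CPM after tau. Of these 7 markers, 2 fell in IP (Gja1 and Sox9) and 1 rose (Slc1a2), where 14.2% of all genes fell and 15.6% rose. None was at 0 in all libraries of a group. Markers of oligodendrocyte precursors, 3 genes, were at -0.23 ± 0.19 after EYFP and -0.95 ± 0.14 after tau, from 34.3 to 38.1 CPM and from 19.5 to 21.2 CPM in IP. The 7 oligodendrocyte markers were at 0.04 ± 0.04 and -0.60 ± 0.54, and the 6 microglial markers at 0.01 ± 0.03 and -0.64 ± 0.39. Their part in the results for Ntrk2, Gfra1 and Gfra2 was not tested.

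**Figure D3:**
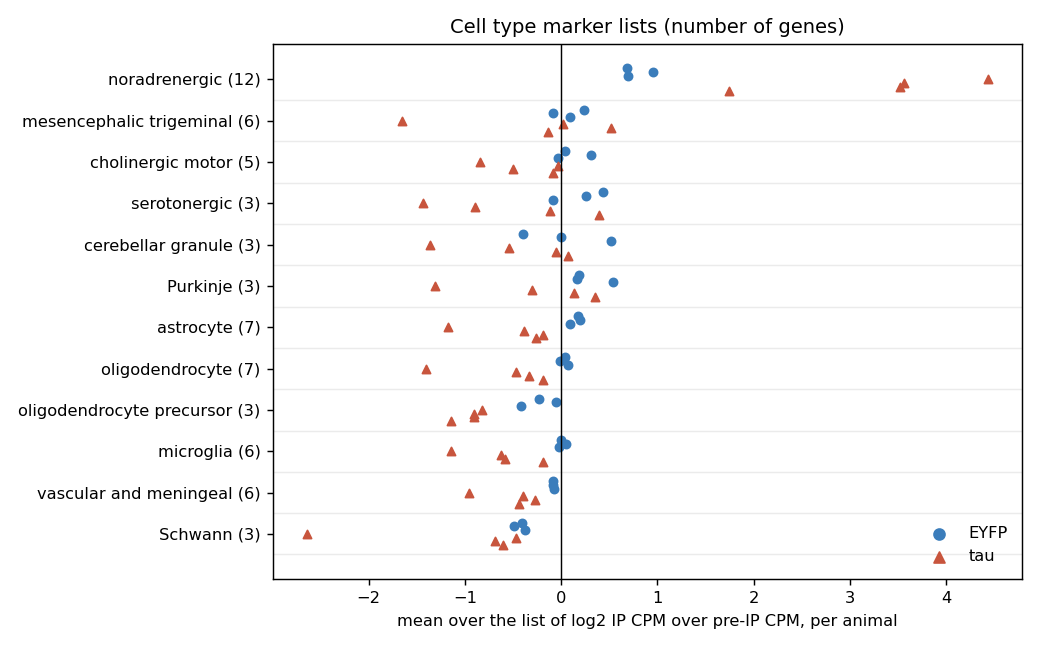
Mean log2 ratio of IP to pre-IP over the genes of each cell type list, with 1 point per mouse (blue circles for 3 EYFP mice, red triangles for 4 tau mice). Noradrenergic markers lie at 0.68 to 0.95 in EYFP mice and at 1.74 to 4.44 in tau mice, and those of oligodendrocyte precursors lie lower in all tau mice than in all EYFP mice.

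Tau IP against EYFP IP asks which transcripts of the immunoprecipitate differed after the tau infusion. No member passed (edgeR, 7 libraries, 19472 genes), where 0% of all genes did. At an unadjusted p under 0.05 there was 1 member, Gfra1, which was lower, where 4.06% of all genes were. DESeq2 called 342 genes and limma with quality weights 0, and none of them was a member. In a simulation of this comparison, edgeR recovered 58% of genes changed by 2 on the log2 scale. The members' log2 differences ran from -0.56 to 0.21, and recovery of changes that small was not simulated.

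Gfra1 averaged 33.3 ± 2.92 CPM (SD, n = 3) in EYFP IP and 21.1 ± 5.42 CPM (n = 4) in tau IP. Its log2 difference was -0.56 (SE 0.20, unadjusted p = 0.0200, adjusted p = 0.338, edgeR), with all 4 tau libraries below all 3 EYFP libraries. Within the lower range of library numbers the difference of mean log2 CPM was -1.03, and within the higher range, with 1 EYFP mouse, it was -0.30. Ntrk2 averaged 143 ± 9.80 CPM in EYFP IP and 109 ± 14 CPM in tau IP, again with no overlap, and its log2 difference was -0.29 (SE 0.15, adjusted p = 0.461, edgeR). Within the ranges it was -0.48 and -0.37. In CPM, these 2 members were the ones whose tau libraries all lay lower, where 9.22% of all genes did. CPM does not hold the scaling factors (TMM) that the test used. For Ntrk2 the nearest libraries were those of tau mouse M (129 CPM, factor 0.994) and EYFP mouse I (133 CPM, factor 1.06). Division by these factors would reverse their order, so the separation of Ntrk2 depends on the scaling.

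Bdnf averaged 15.4 ± 2.86 CPM in EYFP IP and 10.8 ± 1.70 CPM in tau IP, and the groups overlapped only through mouse M (13 CPM) and mouse K (12.8 CPM). Its log2 difference was -0.40 (SE 0.20, adjusted p = 0.454, edgeR), and within the ranges of library numbers it was -0.75 and -0.13. Ret, at 35.1 ± 6.26 CPM after EYFP and 37.8 ± 5.64 CPM after tau, had a log2 difference of 0.21 (SE 0.19, adjusted p = 0.682, edgeR). Gfra2 (-0.21, SE 0.20), Ntrk3 (-0.14, SE 0.16), Ngfr (-0.34, SE 0.54) and Ntf3 (-0.38, SE 1.21) all had groups that overlapped. The median of the 8 log2 differences was -0.32, against -0.08 over all genes. In the same libraries the summed noradrenergic markers ran from 564 to 642 CPM after EYFP and from 1070 to 7168 CPM after tau. RNA concentrations of the IP samples were 2.8, 1.6 and 0.7 ng per microlitre in H, I and K. In B, C, L and M they were 0.1, 0.8, 0.2 and 0.5 ng per microlitre. The part of the noradrenergic markers and of RNA amount in the differences of the members was not tested.

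**Figure D4:**
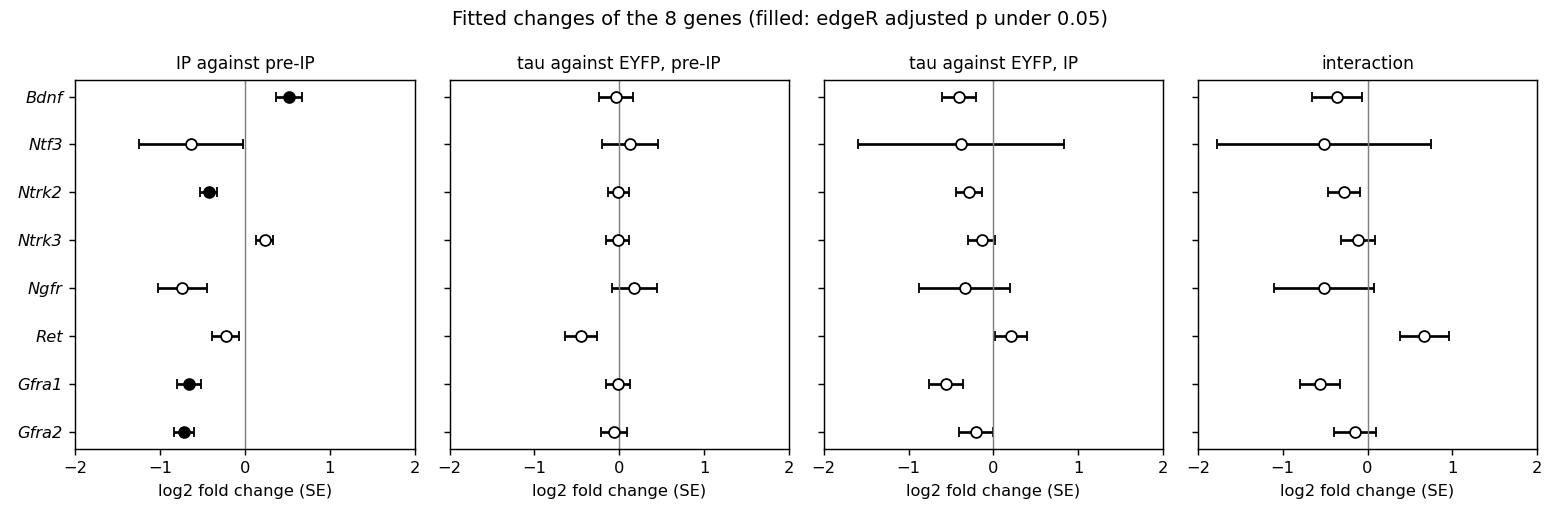
Log2 fold change ± SE from edgeR for each of the 8 members in the 4 comparisons (from left: IP against pre-IP, tau against EYFP in pre-IP, the same in IP, and the interaction of treatment and fraction), with filled points where the adjusted p was under 0.05. Bdnf is filled at 0.52, and Ntrk2, Gfra1 and Gfra2 at -0.43, -0.66 and -0.72, all in IP against pre-IP.

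In the homogenate, tau pre-IP against EYFP pre-IP, no member passed either, where 0% of all 19197 genes tested did (edgeR, and 0 members with DESeq2 and with limma). Gfra1 was almost equal, at 41.9 ± 6.00 CPM (SD, n = 3) after EYFP and 41.4 ± 2.50 CPM (n = 4) after tau, and so was Ntrk2, at 172 ± 17.6 and 169 ± 12.7 CPM. Ret was the member with the lowest p, at 53.0 ± 13.5 CPM after EYFP and 38.5 ± 5.61 CPM after tau. Its log2 difference was -0.45 (SE 0.19, unadjusted p = 0.0376, adjusted p = 1.000, edgeR), where 2.26% of all genes were lower at an unadjusted p under 0.05. Mouse K, at 68.5 CPM, set much of it, and without K the difference was -0.17. The log2 differences of the other 7 members lay between -0.06 and 0.18, and no member's groups were free of overlap, where those of 3.12% of all genes were.

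The interaction of treatment and fraction asks whether the ratio of IP to pre-IP differed between the tau and the EYFP mice. No member passed, where 0% of 20495 genes did (edgeR, and 0 members with DESeq2 and with limma), and at an unadjusted p under 0.05 there were 2 members, Ret with a higher and Gfra1 with a lower ratio after tau, where 4.03% of all genes were higher and 1.94% lower. For Ret the per-mouse log2 ratios were -0.31, -0.65 and -0.79 in H, I and K and 0.10, -0.16, 0.07 and -0.12 in B, C, L and M. For Gfra1 they were -0.14, -0.18 and -0.65 in the EYFP mice and -1.49, -0.95, -0.85 and -0.74 in the tau mice. The co-receptor thus had its lower ratios after tau and the kinase its lower ratios after EYFP, and neither gene's groups overlapped. For Gfra1 the treatments differed in IP (log2 difference -0.56) and hardly in pre-IP (-0.01). For Ret they differed more in pre-IP (-0.45), where mouse K set much of it, than in IP (0.21).

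The interaction was 0.67 for Ret (SE 0.29, unadjusted p = 0.0335, adjusted p = 0.820, edgeR) and -0.56 for Gfra1 (SE 0.24, unadjusted p = 0.0371, adjusted p = 0.820). Within the lower and the higher range of library numbers the difference between treatments in the per-mouse ratio was 0.45 and 0.76 for Ret, and -1.06 and -0.14 for Gfra1. Ntrk2 had ratios of -0.35, -0.20 and -0.24 in H, I and K and of -0.74, -0.76, -0.53 and -0.52 in B, C, L and M, which did not overlap either. Its interaction was -0.28 (SE 0.19, adjusted p = 0.845, edgeR), and -0.48 and -0.28 within the ranges. In all, 1 member was higher and 2 were lower in every tau mouse than in every EYFP mouse, where 3.93% and 7.94% of all genes were.

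Set against each other within a library, Gfra1 and Ret stood in a different ratio in different groups. This pair was singled out after its values were seen. No ratio between members was among the planned comparisons, so the ratios here are a description. The share of other gene pairs whose groups separate was not computed. The ratio of Gfra1 to Ret CPM was 0.779 to 1.16 in EYFP IP and 0.403 to 0.654 in tau IP, so that the tau IP libraries held the least co-receptor transcript per kinase transcript. In pre-IP the order of the treatments was the opposite, with 0.708 to 0.864 after EYFP and 1.00 to 1.22 after tau. The ratio of Gfra2 to Ret was 0.751 to 1.17 in EYFP IP and 0.477 to 0.810 in tau IP, which overlapped. The ratio of Ntrk3 to Ntrk2 was higher in IP (0.190 to 0.267 after EYFP, 0.222 to 0.321 after tau) than in pre-IP (0.128 to 0.182 and 0.136 to 0.198). The fractions did not overlap within a treatment, but EYFP IP overlapped with tau pre-IP. Ntrk3 and Ntrk2 already had log2 fold changes of opposite sign in IP against pre-IP (0.23 and -0.43).

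The other genes of the pathway were read from a list of 69, of which 64 were tested in IP against pre-IP. Of these, 9 rose, 22 fell and 33 did not pass, where 15.6% of all genes tested rose and 14.2% fell. Their median log2 fold change was -0.29, against -0.00 over all genes, and the share that rose was near that of all genes. Among 11 genes known to be induced by the ERK pathway, through which Trk receptors and Ret signal, 8 fell and 1 rose, against the same 14.2% and 15.6% of all genes, and the median was -0.58. Egr1, an immediate early transcription factor, fell by 1.06 on the log2 scale (SE 0.23, adjusted p = 0.00247, edgeR), and the ETS factor Etv5 fell by 1.01 (SE 0.15, 1.69e-04). Spred1, the 1 gene of this list that rose, did so by 0.73 (SE 0.15, 0.00185).

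Of 18 receptor adaptors, 4 rose and 7 fell, where 15.6% and 14.2% of all genes did. Dok6, an adaptor that binds Ret and TrkC, rose by 1.14 (SE 0.17, adjusted p = 2.30e-04, edgeR), Sos1, an exchange factor of Ras, by 1.00 (SE 0.14, 1.68e-04), and Shc2 by 0.83 (SE 0.26, 0.0243). In the other lists, 1 rose and 1 fell of 5 further neurotrophin and sortilin family genes, 0 rose and 1 fell of 8 tested in the GDNF family list, and 1 rose and 2 fell of 8 in the CNTF and MANF list. Of 6 partners of p75, 1 rose and 2 fell, and of 8 genes of pro-neurotrophin processing 1 rose and 1 fell. In lists this short, 1 gene in a direction is close to those shares. Sorcs2, a receptor of pro-neurotrophins that works with p75, fell by 0.92 (SE 0.21, adjusted p = 0.00341, edgeR), and Lingo1, another partner of p75, fell by 0.89 (SE 0.14, 3.03e-04).

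Of the other ligands, Ntf5 and Gdnf were scarce in both fractions. Ntf5, which encodes neurotrophin-4, had 0 to 54 counts per library and a log2 fold change of -0.40 (SE 0.68, adjusted p = 0.704, edgeR), and Gdnf had 0 to 33 counts and -0.86 (SE 0.70, 0.391). Each of these was at 0 in 2 libraries. Nrtn, the gene of the Gfra2 ligand neurturin, was named after its values were seen and was not scarce, at 17.2 ± 1.80 CPM (SD, n = 3) in EYFP pre-IP, 16.2 ± 3.99 (n = 4) in tau pre-IP, 21.3 ± 2.00 in EYFP IP and 15.7 ± 7.66 in tau IP. In tau IP against EYFP IP none of the 64 genes passed, and at an unadjusted p under 0.05 there were 3 higher and 11 lower, where 7.93% and 4.06% of all genes were.

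**Figure D5:**
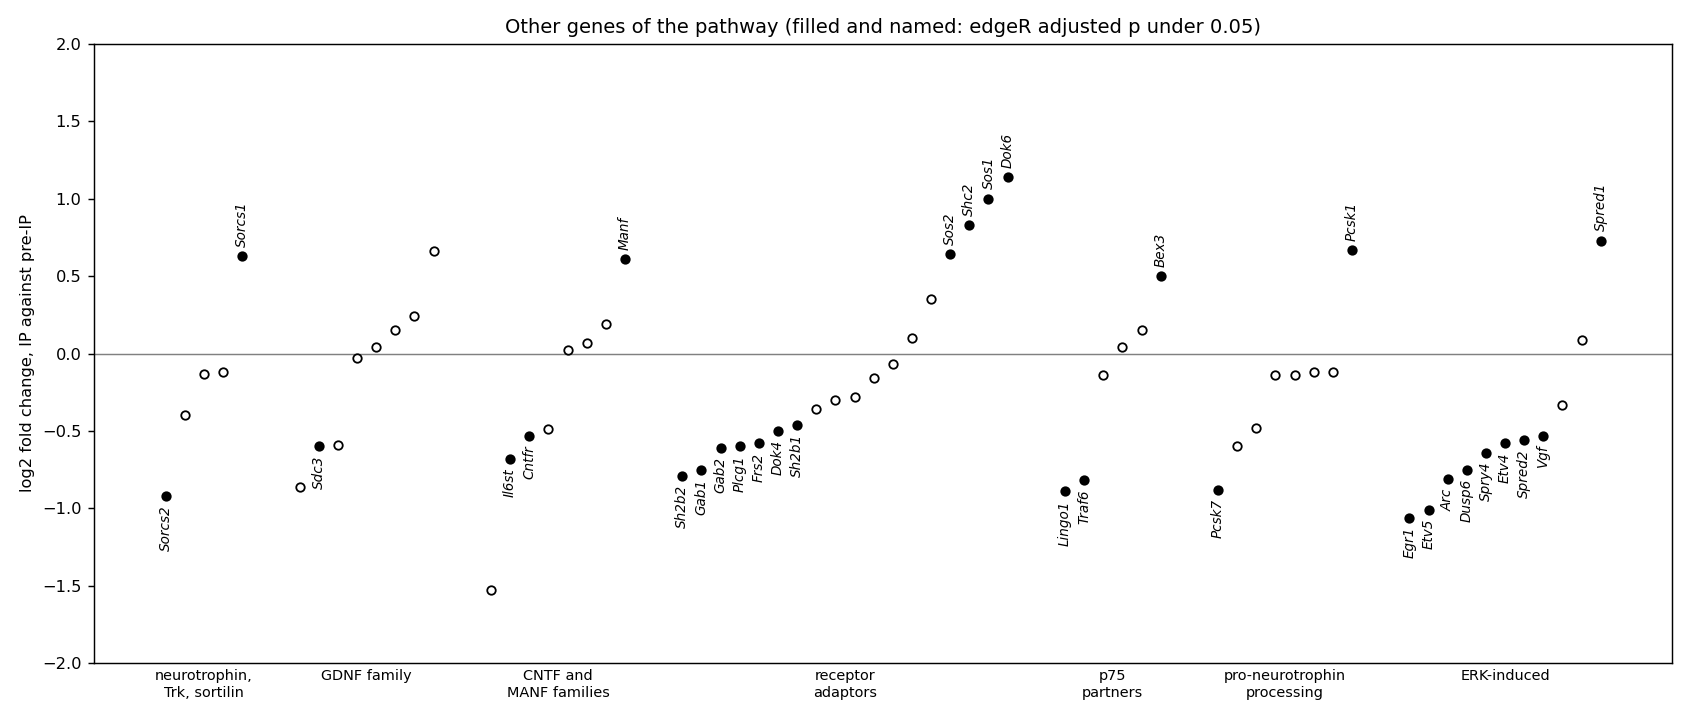
Log2 fold change of IP against pre-IP (edgeR) for the 64 tested genes of the 7 pathway lists, with 1 point per gene ordered by value within its list and filled, named points where the adjusted p was under 0.05. The ERK-induced list has 8 filled points below 0 and 1 above, and the adaptor list has 4 above and 7 below.

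For each member, the 2 most alike genes were taken by Pearson correlation of log2 CPM over the 14 libraries among 15081 other genes, as a description of libraries that share fraction, mouse and depth. Gfra1 was most like Slc6a7 and Pcx (r = 0.99 for both), Ntrk2 like Peli3 and Slc22a5 (0.98), and Gfra2 like Nynrin and Dnajc27 (0.98). Bdnf was most like Ddx1 and Clpx (0.94), and Ntf3 like Rttn (0.95) and Sp1 (0.94). For Ngfr the genes were Tor3a (0.96) and Sspn (0.95), and for Ntrk3 they were Crebbp and Pcf11 (0.92). Ret had the least alike partners, Slco3a1 (0.83) and Fam171a1 (0.80).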

How the data were processed

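The authors' deposited table gives whole-number read counts per gene, not normalized. Libraries were made with SMART-Seq v4 and Nextera XT kits from polyadenylated RNA, per the labels' protocols. FastQC, Trim Galore, STAR and featureCounts and the builds GRCm38 and mm10 are named, per the submitters' processing notes. Versions, strand use and the counting of multi-mapping reads are not given in the sources used here. Of 55422 rows, 55421 are mouse genes and 1 is the tau construct. Symbols came from the deposited gene table for 51656, and from GENCODE M21 for 3669. Integrity of the RNA is a score, and GC content a percent of reads, both as the authors deposited them. CPM is per 1000000 of a library's total.

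Genes were filtered with filterByExpr and tested with edgeR 4.0.16 in R 4.3.3 (TMM scaling, quasi-likelihood F test, Benjamini-Hochberg over all genes, 0.05). The model for the fractions held the treatment, those for tau against EYFP were fitted per fraction, and the interaction used all 14 libraries. The SE is the log2 fold change divided by the root of F. Per-mouse ratios used 2 added counts. These ratios and the overlap of groups were taken in CPM, without the TMM factors. Alternatives were DESeq2 1.42.0, limma 3.58.1, other scalings and filters, covariates, subsets and each mouse left out. The members and lists were chosen with earlier results of these data known. All 8 members are named throughout. Of the other pathway genes, those named are at most the 4 with the largest change in each direction past 0.05, plus Ntf5 and Gdnf. A part of the pathway list is not reported here and is left out of its counts.

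IP and pre-IP of a mouse share its letter and come from the same animal. Deviations of both from their group means correlated at r = 0.15 to 0.38 in the 7 mice. The script was tested on simulated data with 200 changed genes: at a log2 change of 2, edgeR recovered 85% in IP against pre-IP. The 97 identifiers without a symbol were kept. Counting floors cover counting error only.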

Additional observations from a re-analysis of the deposited data

How the results depend on the processing

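The count of members passing in IP against pre-IP was 4, and 3 to 4 with 1 mouse left out. It was 2 in the EYFP mice alone and 1 in the lower range of library numbers, both with fewer libraries, and the subsets by range were chosen after seeing the data. With the mouse as a replicate block it was 5, through Ngfr, and 0 in the interaction, and the block changed no other call. Ngfr also passed with DESeq2's Wald test (adjusted p = 0.0371), with the range as covariate (0.0384) and in the higher range (-0.83, 0.0498). Bdnf did not pass in the lower (0.45, 0.166) or the higher range (0.60, 0.0574). Ntrk2 (-0.41, 0.0633) and Gfra1 (-0.58, 0.0885) did not pass in the lower range. All 4 passed without M and without K. In the other 3 comparisons no alternative made a member pass. Of 516 recomputed fold changes, 480 kept direction and call, 23 changed sign, 9 no longer passed and 4 came to pass. Ret in IP against pre-IP was 0.03 in the tau mice. With 1 mouse left out, Ntf3 in tau IP against EYFP IP ran from -1.13 to 0.15. In tau pre-IP against EYFP pre-IP, leaving out 1 mouse gave -0.15 to 0.10 for Bdnf, -0.13 to 0.27 for Ntf3, -0.09 to 0.06 for Ntrk2, -0.11 to 0.07 for Ntrk3, -0.09 to 0.16 for Gfra1 and -0.16 to 0.02 for Gfra2. There, limma gave 0.02 for Ntrk2 and 0.06 for Gfra1, the sex label as covariate gave 0.03 for both, and the lower range gave 0.18 for Bdnf, 0.04 for Ntrk2 and 0.07 for Gfra1. The cause of these changes was not tested. Low counts limit what can be said of Ntf3 and Ngfr, with 0 to 3.30 CPM.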
